A study of Mus musculus with 12 samples.

Results

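A set of 55 genes, of 55536 in the deposited count table, lay clearly lower in the thyroids of affected mice than in those of unaffected mice. The members were chosen on their own measured values. CPM is a gene's count over its library's total count, scaled to a common total. Each member had a mean of at least 5 CPM in the 7 unaffected mice, and its lowest unaffected CPM was at least 1.3 times its highest affected CPM. This smallest gap between the groups, the lowest unaffected value divided by the highest affected value, is called the margin below. *Tg*, *Fras1*, *Frem2*, *Erbb4* and *Npy* were set aside. Of these 5 genes, *Fras1*, *Frem2* and *Erbb4* met the same rule, *Tg* overlapped between the groups (margin 0.887), and *Npy* had an unaffected mean of 3.70 CPM, under the minimum. Since the comparison of affected with unaffected mice selected the members, their differences between the groups are given as a description with no test.

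The study followed a thyroid dysplasia that arose spontaneously in C57BL/6NTac (B6NTac) mice, a substrain of C57BL/6 bred at Taconic, and traced it to a LINE-1 retrotransposon in an intron of the thyroglobulin gene *Tg*. Total RNA of thyroids from 12 mice was sequenced after removal of ribosomal RNA, with 1 library per mouse. The 5 affected mice (replicates 1, 3, 4, 5 and 6) came from the B6NTac background. Of the 7 unaffected mice, 6 (replicates 21 to 26) were C57BL/6NCrl (B6NCrl) mice from Charles River and 1 (replicate 14) was an unaffected knockout mouse on the B6NTac background, whose knocked-out gene the sources used here do not name. The colony of replicate 14 is taken from its library name and the study's methods, while another passage of the study describes all unaffected mice as B6NCrl. The labels give no LINE-1 genotype, sex, age or batch for single mice. Phenotype and colony therefore split the mice the same way except for replicate 14, and the effects of the phenotype and of the substrain cannot be told apart in the other 11 mice.

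The thyroid follicle is a shell of polarized epithelial cells, the thyrocytes, around a lumen filled with thyroglobulin. Thyrocytes take up iodide on their basal side, rest on a basement membrane of laminins and type IV collagens, and answer to thyrotropin and to receptors that act through cAMP or calcium. Their identity is set by the transcription factors Nkx2-1, Pax8, Foxe1 and Hhex. A whole thyroid also holds calcitonin-producing C cells, vessels and fibroblasts, and a dissected one can carry parathyroid, thymus, trachea, muscle or fat. In RNA of a whole tissue, fewer cells of a type and less RNA per cell cannot be told apart.

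Library totals ranged from 11434901 counts in unaffected replicate 14 to 23319948 in affected replicate 5. *Tg* took between 10.7% and 29.6% of all counts, so thyrocyte RNA was abundant in all 12 mice. The lowest shares were those of affected replicates 6 (10.7%) and 1 (11.04%). Several libraries stood apart in other tissues. The summed level of 20 skeletal muscle markers ranged from 166 to 108700 CPM in affected mice, highest in replicate 6, and from 52.2 to 47120 CPM in unaffected mice. The 14 airway and ultimobranchial epithelium markers summed to 34840 CPM in unaffected replicate 23 and 3026 CPM in affected replicate 3, and to 745 CPM or less in every other mouse. The 16 T cell markers summed to 1039 and 837 CPM in unaffected replicates 14 and 21 and to at most 108 CPM elsewhere. *Pth*, the parathyroid hormone gene, was at 0.689 CPM in affected replicate 4 and at 1743 CPM or more in the other mice. *Xist* was between 1547 and 2197 CPM in affected replicates 1, 3 and 5 and unaffected replicates 21, 23 and 25, and at 18.5 CPM or less in the others, so each group held mice of both levels. None of the 55 members is in any of the marker lists. Leaving out 1 mouse at a time, the median ratio of the members was between 2.18 (without affected replicate 6) and 2.39 (without affected replicate 3). The rule requires a gap between every affected and every unaffected mouse, so leaving out 1 mouse cannot remove it. The part of the other tissues in the members' values was not tested.

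Among the 12473 genes with an unaffected mean of at least 5 CPM, 0.465% met the rule with the genes set aside included, and 0.473% (59 genes) met the mirrored rule for higher genes. With no overlap between the groups as the sole condition, 3.75% were lower. The ratio of mean CPM, unaffected over affected, ran from 1.80 to 4.69 in the members with a median of 2.29, while the median over all 12473 genes was 0.993. It was at least 2 in 44 members and at least 3 in 13. The members' unaffected means ran from 6.88 to 510 CPM, and the lowest count of any member in any mouse was 26. These values and the size of the set follow from the rule. The plot of group means shows where the members lie among all genes.

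**Figure D1:**
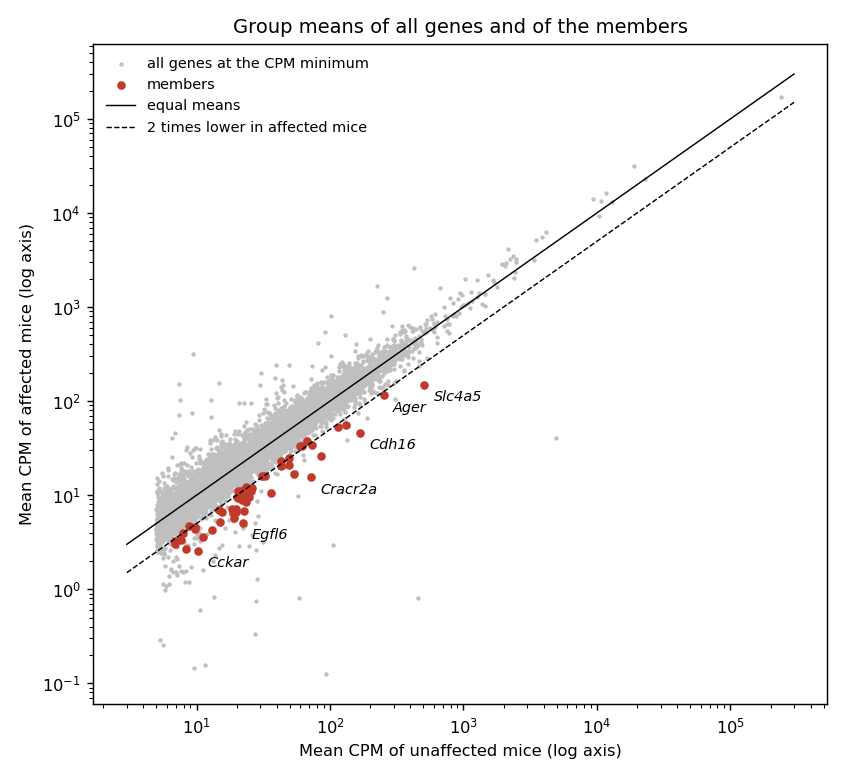
Mean CPM of the 7 unaffected mice (x axis, log scale) against mean CPM of the 5 affected mice (y axis, log scale) for the 12473 genes with an unaffected mean of at least 5 CPM. Grey points are all genes and red points the 55 members, with ratios from 1.80 to 4.69. On or under the dashed line of 2 times lower means lie 44 members. The others lie between it and the line of equal means.

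The members spread over 20 chromosomes, with 2 on chromosome 15, which carries *Tg*, and 3 on the X chromosome (*Egfl6*, *Usp11* and *Prrg3*). Protein-coding genes were 50 of the 55. The median summed exon length was 4891 bp in the members and 4634 bp in all genes at the CPM minimum. In 41 members no exon overlapped that of another annotated gene. Exons overlapped another gene on the same strand in 7 members and on the other strand in 12, in each case over less than 50% of the exon length. The sources used here do not say whether the counting used the strand, so in those members the reads of overlapping genes may be shared.

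Promoter windows are shown for the 4 members of largest ratio that have an entry in RefSeq's table (GRCm38.p6), and for the region between *Col4a3* and *Col4a4*, since a collagen gene outside the set starts there next to a member. Each window runs 5′ to 3′ on the gene's strand, from 250 bases before the RefSeq start to 50 after it. Capitals mark matches to the motifs searched, on either strand. The *Cracr2a* window (chr6:127561086-127561385, plus strand) has its RefSeq start 2 bp from the gene start in the deposited table. The *Egfl6* window is chrX:166585667-166585966 on the minus strand. The *Slc4a5* window (chr6:83237125-83237424, plus strand) lies inside the gene as the deposited table gives it, with its RefSeq start 17547 bp from the gene's first base. The *Cnr1* window is chr4:33924394-33924693 on the plus strand. The *Col4a4* window (chr1:82586800-82587099, minus strand) also contains the start of *Col4a3*, which is transcribed the other way from position 82586921.
Cracr2a: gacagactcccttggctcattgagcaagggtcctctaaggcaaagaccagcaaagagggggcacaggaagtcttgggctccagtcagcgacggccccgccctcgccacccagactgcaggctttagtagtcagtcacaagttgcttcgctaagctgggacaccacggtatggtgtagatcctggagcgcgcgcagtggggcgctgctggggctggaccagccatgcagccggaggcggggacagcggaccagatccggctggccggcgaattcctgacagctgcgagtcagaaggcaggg
Egfl6: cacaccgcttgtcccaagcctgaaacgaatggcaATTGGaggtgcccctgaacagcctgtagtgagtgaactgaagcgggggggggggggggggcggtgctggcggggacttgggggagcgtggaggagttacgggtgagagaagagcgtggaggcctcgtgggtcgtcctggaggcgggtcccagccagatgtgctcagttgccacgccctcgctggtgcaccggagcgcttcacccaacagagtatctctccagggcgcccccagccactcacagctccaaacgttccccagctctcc
Slc4a5: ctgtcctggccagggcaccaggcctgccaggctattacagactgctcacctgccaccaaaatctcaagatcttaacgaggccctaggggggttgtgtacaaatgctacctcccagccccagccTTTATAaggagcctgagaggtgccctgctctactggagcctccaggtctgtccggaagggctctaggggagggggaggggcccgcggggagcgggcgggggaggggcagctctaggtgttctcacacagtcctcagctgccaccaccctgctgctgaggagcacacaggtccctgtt
Cnr1: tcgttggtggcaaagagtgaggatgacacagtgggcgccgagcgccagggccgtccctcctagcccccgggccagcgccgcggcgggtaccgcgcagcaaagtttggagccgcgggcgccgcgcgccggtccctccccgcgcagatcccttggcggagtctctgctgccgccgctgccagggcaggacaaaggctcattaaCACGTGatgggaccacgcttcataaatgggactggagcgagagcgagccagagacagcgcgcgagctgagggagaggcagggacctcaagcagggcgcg
Col4a4 and Col4a3: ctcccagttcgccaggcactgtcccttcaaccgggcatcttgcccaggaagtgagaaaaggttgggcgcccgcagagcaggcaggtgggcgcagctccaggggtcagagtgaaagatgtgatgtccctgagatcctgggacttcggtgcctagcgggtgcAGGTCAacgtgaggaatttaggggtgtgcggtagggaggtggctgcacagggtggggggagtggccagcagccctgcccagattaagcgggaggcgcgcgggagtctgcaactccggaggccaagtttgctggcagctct

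In these windows the capitals in *Egfl6* are a CCAAT box and those in *Slc4a5* a TATA box (TATAAA), each read on the other strand. Those in *Cnr1* are an E-box (CACGTG) and those in *Col4a4* a nuclear receptor core motif (AGGTCA), which is only part of a full site. None of the searched motifs was found in the *Cracr2a* window. Of the 55 members, 40 matched the promoter table, with 55 windows. A CCAAT box was found in 36.4% of the members' windows, in 37.0% of the windows of genes at the CPM minimum and in 37.4% of all windows. An NKX2 core (CAAGTG) was found in 12.7%, 11.4% and 13.6%. The nuclear receptor core motif (AGGTCA) was found in 12.7%, 12.3% and 16.3%, and a TATA box in 9.09%, 7.23% and 13.6%. An E-box was found in 7.27%, 9.80% and 7.15%. A CRE (TGACGTCA) occurred in 1 member window, of *Cnnm4*, with shares of 1.82%, 3.00% and 1.79% in the same order. A UPRE core (TGACGTGG) occurred in 1, of *Ccdc8*, with shares of 1.82%, 0.86% and 0.68%. No member window held an ERSE, a CARE (TGATGCAAT) or a D-box (TTATGTAA), each of which is in under 1% of all windows. The median GC content was 61.7% in the members' windows and 61.0% in those of genes at the CPM minimum.

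The largest ratio was that of *Cracr2a* (ENSMUSG00000061414, chromosome 6, 127561338 to 127674248, GRCm38 as for all coordinates here), a calcium sensor of store-operated calcium entry, the route by which cells refill calcium after the endoplasmic reticulum has released it. Its level was 13.6, 16.3, 19.3, 20.2 and 7.98 CPM in affected replicates 1, 3, 4, 5 and 6. In unaffected mice it ranged from 44.0 to 135 CPM with a median of 63.7. Every affected mouse lay far under the lowest unaffected mouse, and the highest value, in replicate 23, stood well above the other 6. The means were 72.6 ± 29.9 CPM (SD, n = 7) and 15.5 ± 4.95 CPM (SD, n = 5), a ratio of 4.69 and a margin of 2.17. Without replicate 23 the ratio was 4.015. Replicate 23 was also the mouse with the airway markers. That the airway RNA contributed to its *Cracr2a* level was not tested, and the margin does not depend on it, since the lowest unaffected value was that of replicate 22.

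Most other genes of store-operated calcium entry were not called. Of 10 further genes of this list that were tested, 1 was lower and 2 were higher by edgeR's quasi-likelihood test. Over all 19661 genes, this test called 6.1% lower and 7.63% higher. The median log2 change of the 10 genes was 0.078, and so few calls are not read as a result about the list. *Orai2*, a pore subunit of the plasma membrane channel, changed by -0.78 on the log2 scale (SE 0.179, adjusted p = 0.0130), with overlapping groups. *Saraf*, which turns the channel off, rose by 0.66 (SE 0.0719, adjusted p = 0.000157). *Trpc6*, a cation channel, rose by 0.86 (SE 0.145, adjusted p = 0.00223) from a low level of 1.60 CPM.

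The receptors and signalling genes were 8 members, with ratios of 1.80 to 4.69. *Cckar* (ENSMUSG00000029193, chromosome 5, 53697776 to 53707705) encodes the cholecystokinin receptor that raises intracellular calcium. It measured 1.68, 4.10, 2.75, 2.87 and 1.29 CPM in affected mice and from 7.07 to 15.1 CPM, with a median of 10.1, in unaffected mice. Its 5 affected values were all under 5 CPM and its unaffected values all above 7 CPM, with a ratio of 4.06. *Cnr1* (ENSMUSG00000044288), the cannabinoid receptor CB1, measured 8.99, 9.10, 14.5, 13.7 and 6.74 CPM in affected mice. In unaffected mice it ranged from 30.8 to 43.4 CPM with a median of 33.2. Its ratio was 3.41 with a margin of 2.12, and the unaffected mice lay close together (36.2 ± 5.34 CPM, SD, n = 7). *Faah*, which breaks down the cannabinoid anandamide and is listed with the enzymes, was also a member, at 24.6 ± 6.12 CPM (SD, n = 5) against 49.1 ± 5.33 CPM (SD, n = 7), but with a margin of only 1.31.

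*Ager* (ENSMUSG00000015452, chromosome 17, 34597862 to 34600936), the receptor for advanced glycation end products, was the second most abundant member. Its values were 70.4, 148, 137, 145 and 73.7 CPM in affected mice and ranged from 225 to 290 CPM, with a median of 252, in unaffected mice. Replicates 1 and 6 lay at about the same low level and the other affected mice between them and the unaffected mice, and the ratio of 2.22 became 2.02 without replicate 1 and 2.03 without replicate 6. The gene is best known from the alveolar epithelium of the lung. *Il17rb*, a subunit of the receptor for the cytokine IL-25, had means of 10.3 ± 2.47 CPM (SD, n = 5) and 24.4 ± 3.48 CPM (SD, n = 7). *Dgkb*, a diacylglycerol kinase, had a ratio of 2.18, and *Rasa4*, a calcium-dependent switch-off protein for Ras, had the lowest ratio of all members, 1.80, with 33.0 ± 4.66 CPM (SD, n = 5) against 59.3 ± 3.42 CPM (SD, n = 7).

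Among 6 members that encode channels, pumps and transporters, with ratios of 1.93 to 3.43, *Slc4a5* (ENSMUSG00000068323, chromosome 6, 83219828 to 83304945) was the most abundant member of the whole set. It encodes a cotransporter that carries sodium and bicarbonate together. Its values were 105, 160, 216, 175 and 88.8 CPM in affected mice and ranged from 466 to 579 CPM, with a median of 480, in unaffected mice. The unaffected mice differed among themselves by far less than they did from the highest affected mouse, and the margin was 2.15. *Slc39a8*, an importer of zinc and manganese, measured from 6.13 to 10.97 CPM in affected mice and from 16.6 to 29.2 CPM in unaffected mice, a ratio of 2.81. *Atp6v0a4*, a subunit of the proton pump known from acid-secreting epithelia, measured 1.78, 6.00, 4.97, 3.23 and 1.82 CPM in affected mice and at least 8.44 CPM in every unaffected mouse. Among affected mice it varied more than any other member, with a coefficient of variation (CV, the SD over the mean) of 53.1%. *Slc35f2*, a solute carrier, varied little, from 2.88 to 3.69 CPM in affected and from 6.56 to 8.55 CPM in unaffected mice. Of 285 other solute carrier genes tested, 13 were lower and 36 were higher by edgeR, and their median log2 change was 0.087.

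The 7 matrix, adhesion and secreted members had ratios of 2.31 to 4.37. *Egfl6* (ENSMUSG00000000402), a secreted basement membrane protein, measured 3.80, 5.04, 8.31, 4.59 and 3.67 CPM in affected mice and from 15.7 to 29.1 CPM, with a median of 22.4, in unaffected mice. Affected replicate 4 was the highest of its group and still under every unaffected mouse by a margin of 1.89. *Cdh16* (ENSMUSG00000031881, chromosome 8, 104601911 to 104624396), a cadherin known from kidney and thyroid epithelium, measured 21.3, 66.3, 59.7, 55.3 and 25.8 CPM in affected mice. In unaffected mice it ranged from 131 to 220 CPM with a median of 156. Affected replicates 1 and 6, the mice with the lowest *Tg* shares, again formed the low end, and the ratio was 3.70. The part of a lower share of thyrocyte RNA in their *Ager* and *Cdh16* values was not tested. Of 32 other genes of epithelial junctions and adhesion, 1 was lower and none was higher by edgeR, although 7.63% of all tested genes were higher. That gene, *Cldn8*, a claudin, changed by -0.59 on the log2 scale (SE 0.104, adjusted p = 0.00315). Of 63 other cadherin and protocadherin genes, 2 were lower and 1 was higher.

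*Col4a3* (ENSMUSG00000079465, chromosome 1, 82586921 to 82722059) encodes a chain of type IV collagen that assembles with the products of *Col4a4* and *Col4a5*. It measured 45.8, 55.7, 79.5, 56.4 and 42.2 CPM in affected mice and from 125 to 147 CPM, with a median of 129, in unaffected mice. The unaffected mice were close to each other (133 ± 7.98 CPM, SD, n = 7), with the affected mice all well under them (55.9 ± 14.5 CPM, SD, n = 5). *Col4a4*, whose start lies beside that of *Col4a3* in the window printed above, was not a member because its margin was too small. It measured 121 ± 31.2 CPM (SD, n = 5) in affected and 247 ± 23.4 CPM (SD, n = 7) in unaffected mice with no overlap, a log2 change of -1.02 (SE 0.149, adjusted p = 0.00101). Of 20 other laminin, nidogen and type IV collagen genes, 6 were lower and 1 was higher, and their median log2 change was 0.026. *Lamb1*, a laminin chain, changed by -0.60 (SE 0.101, adjusted p = 0.00236). *Nid2*, a nidogen, changed by -0.51 (SE 0.147, adjusted p = 0.0372), a call that was lost without affected replicate 1, 3, 5 or 6 or without unaffected replicate 14, 22, 24, 25 or 26 (adjusted p from 0.0515 to 0.0785).

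*Spon1* (ENSMUSG00000038156, chromosome 7, 113765998 to 114043370), the secreted protein F-spondin, measured 22.5, 22.8, 13.9, 13.7 and 10.01 CPM in affected mice. In unaffected mice it ranged from 48.6 to 63.9 CPM with a median of 52.1, a margin of 2.13. Its order among affected mice differed from that of *Slc4a5*, since replicates 1 and 3 were the highest. Of 19 other genes for isthmins and proteins with thrombospondin repeats, 2 were lower and 1 was higher. *Ism1*, a secreted isthmin, changed by -1.01 on the log2 scale (SE 0.176, adjusted p = 0.00287), and *Ism2* changed by -2.23 (SE 0.328, adjusted p = 0.00101) from 2.92 CPM. *Thbs3*, a thrombospondin, rose by 0.93 (SE 0.164, adjusted p = 0.00314). *Mmp16*, a membrane-bound matrix protease, had its highest affected value, 3.51 CPM, in replicate 1 and its lowest unaffected value, 4.69 CPM, in replicate 23.

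The 7 metabolic enzymes had ratios of 1.999 to 2.98. *Lrat*, which stores retinol as its ester, measured 5.14 ± 1.69 CPM (SD, n = 5) against 15.1 ± 4.31 CPM (SD, n = 7). *Elovl2*, an elongase of long polyunsaturated fatty acids, measured 9.56 ± 1.96 CPM (SD, n = 5) against 21.7 ± 3.10 CPM (SD, n = 7). *Gcnt1*, which branches mucin-type sugar chains, ranged from 3.42 to 10.6 CPM in affected mice, highest in replicate 1, and from 15.5 to 25.9 CPM in unaffected mice. *Gstt1*, a glutathione transferase, measured 12.4, 11.4, 12.5, 9.48 and 7.54 CPM in affected mice and from 19.7 to 26.2 CPM in unaffected mice. Of 32 other enzymes of peroxide and xenobiotic metabolism, none was lower and 10 were higher by edgeR. *Hmox1*, which degrades heme, rose by 1.68 (SE 0.192, adjusted p = 0.000222), *Sod3*, a secreted superoxide dismutase, by 1.67 (SE 0.146, adjusted p = 5.53e-05), and *Ephx1*, an epoxide hydrolase, by 0.93 (SE 0.144, adjusted p = 0.00145).

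The 6 nuclear factors and regulators of RNA or protein stability had ratios of 1.85 to 2.57. *Tent5c*, a poly(A) polymerase that extends the tails of messenger RNAs for secreted proteins, measured 61.8, 47.1, 65.3, 44.8 and 49.2 CPM in affected mice and from 90.4 to 137 CPM, with a median of 113, in unaffected mice. *Esrrb*, an orphan nuclear receptor, measured 9.57 ± 2.25 CPM (SD, n = 5) against 24.6 ± 4.88 CPM (SD, n = 7). *Ikzf4*, a zinc finger factor also used in T cells, measured 21.4 CPM in replicate 14 and 25.1 CPM in replicate 21, the unaffected mice with the most T cell marker RNA, and from 19.5 to 23.8 CPM in the other unaffected mice. The part of T cells in these values was not tested. *Usp11*, a deubiquitinase encoded on the X chromosome, ranged from 13.9 to 17.9 CPM and from 26.0 to 36.5 CPM, although each group held mice with and without *Xist*.

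The 7 members for membrane, vesicle and cytoskeleton proteins had ratios of 1.81 to 3.34, with *Snx31*, a sorting nexin, at 5.72 ± 1.57 CPM (SD, n = 5) against 19.1 ± 3.07 CPM (SD, n = 7). *Dpysl3*, a cytoskeletal protein of growing neurites, measured 37.0, 25.4, 26.0, 17.7 and 24.8 CPM in affected mice and from 62.2 to 109 CPM in unaffected mice. The 9 proteins of other or little known function had ratios of 1.83 to 3.33, led by *D430019H16Rik* at 6.84 ± 2.46 CPM (SD, n = 5) against 22.8 ± 3.79 CPM (SD, n = 7). *Ccdc74a* followed with 4.22 ± 1.51 CPM (SD, n = 5) against 13.2 ± 3.74 CPM (SD, n = 7), and *AU021092* was among the 8 most abundant members with 34.0 ± 14.4 CPM (SD, n = 5) against 72.8 ± 5.66 CPM (SD, n = 7). The 5 non-coding and pseudogene entries (*Gm6545*, *Gm42868*, *Gm49291*, *Gm36346* and *Gm12992*) had ratios of 1.94 to 2.79.

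**Figure D2:**
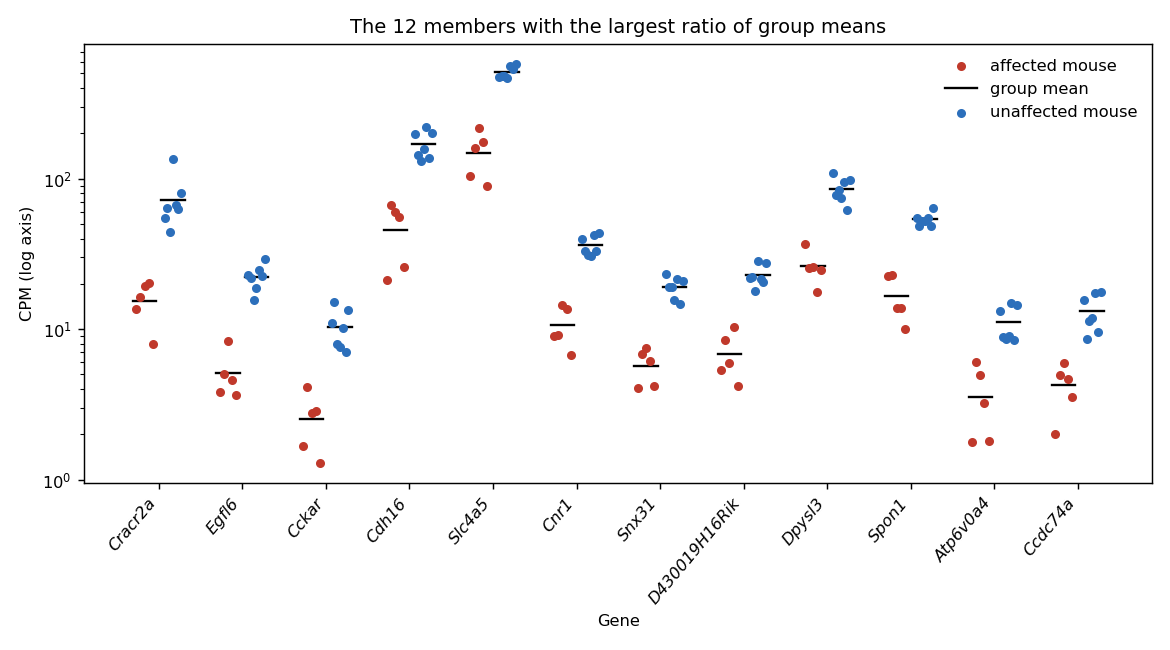
CPM on a log axis for the 12 members with the largest ratio of group means. Each point is 1 mouse, red for the 5 affected and blue for the 7 unaffected mice, and black bars are group means. The groups do not overlap in any of the 12 genes, as the rule requires, and unaffected replicate 23 stands out in *Cracr2a* at 135 CPM.

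Some members lay next to each other in the genome. *Gm36346* and *Gm49291* are 1802 bp apart on the minus strand of chromosome 13. *Gm12992* and *Tmem200b* start 1741 bp apart on chromosome 4 and are transcribed away from each other, as are *Tent5c* and *Gm42868*, 8104 bp apart on chromosome 3. *Pnmal2* and *Ccdc8* lie 43.9 kb apart on chromosome 7, with 3 genes between them. Such pairs are not independent observations where reads or a start region are shared, and exons of *Gm49291* overlapped another gene on the same strand over 29.1% of their length.

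At the edge of the rule, *Faah* (margin 1.311), *Pnmal2* (1.311) and *Tspan33* (1.316) were just inside, while *Plagl1* (1.298), *Sox5* (1.298) and *Tacr1* (1.293) were just outside. The lowest unaffected means inside were those of *Upb1* (6.88 CPM), *Ccdc60* (6.91 CPM) and *Slc35f2* (7.67 CPM). *Gm14066* (4.995 CPM), *Scn9a* (4.68 CPM) and *E130310I04Rik* (4.44 CPM) kept the margin but lay just under the CPM minimum.

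Within each group the members differed in which mouse was extreme. The median over the 55 members, as a percentage of the unaffected mean, was 41.2% in affected replicate 1, 47.8% in replicate 3, 49.7% in replicate 4, 42.7% in replicate 5 and 31.8% in replicate 6. Affected replicate 4 held the highest affected value in 28 members and replicate 6 the lowest in 35. Over all genes at the CPM minimum, replicate 6 was the lowest affected mouse in 52.0%, replicate 4 the highest in 17.6% and replicate 1 the highest in 41.7%. The unaffected mice had medians from 89.6% in replicate 22 to 114% in replicate 26. In *Dpysl3*, *Mmp16*, *Gcnt1*, *Ccdc8*, *Upb1*, *Klhdc8b*, *Syngr1* and *Rasa4* the highest affected mouse was replicate 1. Of all 12 mice, this one had the highest summed markers of adipocytes (3403 CPM, at most 1618 CPM elsewhere), fibroblasts and mural cells (2827 CPM, at most 1695 CPM), Schwann cells and neurons (722 CPM, at most 417 CPM), B cells (360 CPM, at most 58.4 CPM) and macrophages (531 CPM, at most 434 CPM). Their part in those 8 values was not tested. The members' CV had a median of 13.4% in unaffected and 23.5% in affected mice, against 11.2% and 16.98% over all genes at the CPM minimum.

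**Figure D3:**
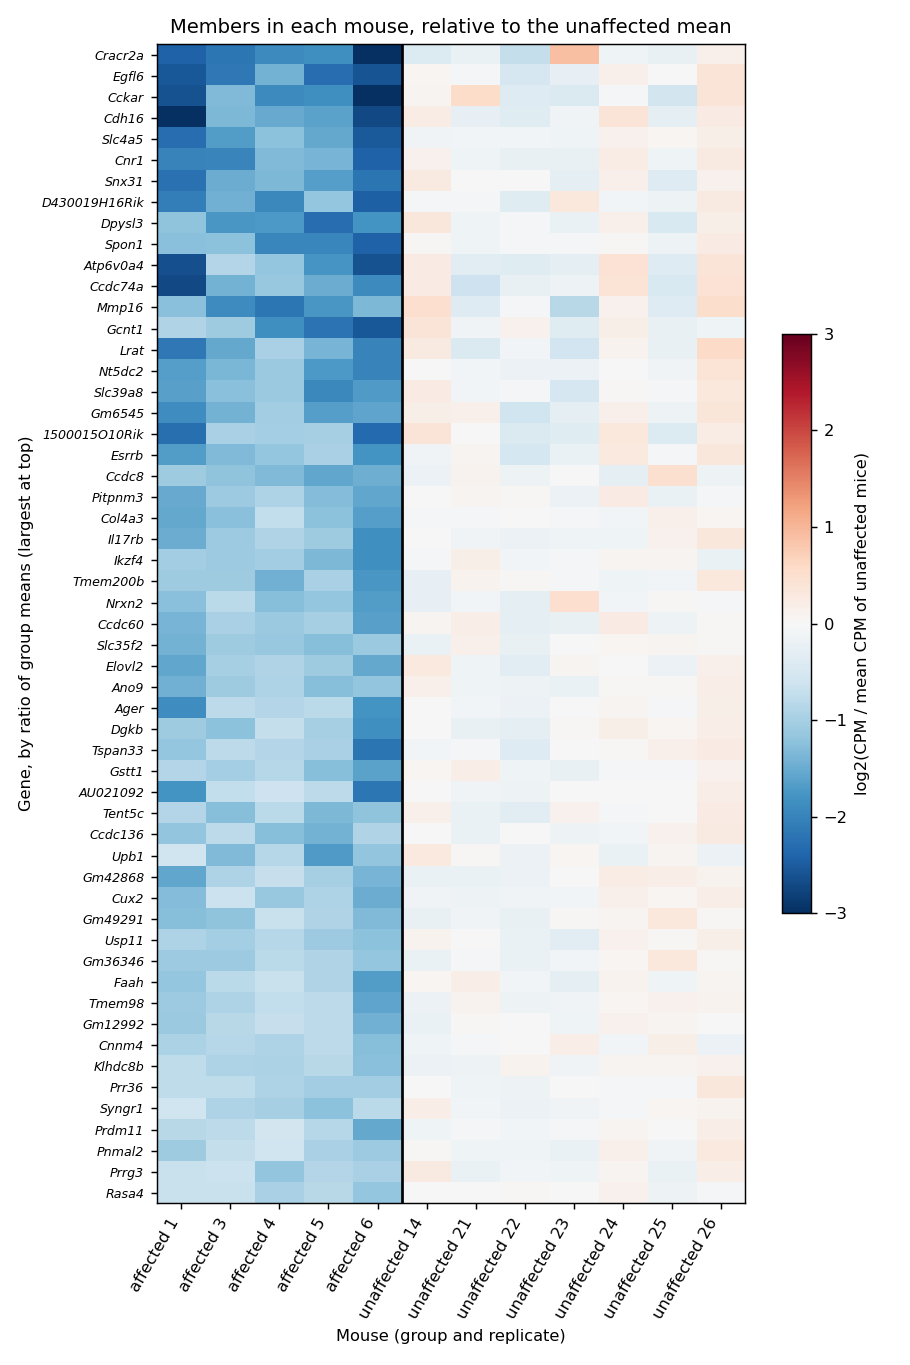
Colour gives log2 of the CPM over the mean CPM of the 7 unaffected mice for the 55 members (rows, largest ratio at the top) in the 12 mice (columns, affected left of the black line). All affected columns are blue, darkest in replicate 6, with a median of 31.8% of the unaffected mean, and the unaffected columns are near white.

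The thyrocyte transcription factors were lowest in the same affected mice as the members. Relative to the unaffected mean, the geometric mean of *Nkx2-1*, *Pax8* and *Foxe1* was 0.449, 0.661, 0.945, 0.775 and 0.409 in affected replicates 1, 3, 4, 5 and 6, and ranged from 0.878 to 1.19 in unaffected mice. Affected replicates 1 and 6, where the factors were lowest, were also the mice with the lowest medians of the members. In affected replicate 4, where the factors were within the range of unaffected mice, the members ranged from 22.4% of the unaffected mean in *Mmp16* to 67.8% in *Prdm11*. The rule requires a low value of every member in every affected mouse, while the factors were not chosen by it. The low members in this mouse therefore follow from the choice. Of the 12 thyroid lineage factors tested, *Pax8* was called lower by edgeR, with a log2 change of -0.81 (SE 0.192, adjusted p = 0.0158), and none was higher. *Nkx2-1* changed by -0.41 (adjusted p = 0.199) and *Foxe1* by -0.61 (adjusted p = 0.0696).

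When each mouse's CPM was divided by this geometric mean, an alternative chosen after the values were seen, the median ratio of the members was 1.42 (1.04 to 3.01), and the median of all genes moved to 0.77 on the log2 scale. Only 8 of the 55 members kept the margin of 1.3, while 0.0719% of all genes at the CPM minimum met the rule on this scale. These 8 were *Cracr2a*, *Egfl6*, *Cdh16*, *Slc4a5*, *Cnr1*, *Snx31*, *D430019H16Rik* and *Nt5dc2*. In 19 members the groups still did not overlap, against 0.248% of all genes, and in 36 they did. The members were chosen for a gap between the groups in these same mice before the division. Larger shares than over all genes follow from that choice and are no result about the members. *Slc4a5* then measured 229 ± 8.94 in the 5 affected mice and 512 ± 37.1 in the 7 unaffected mice (SD, in CPM units), so its CPM differed between affected mice almost in proportion to the factors, with a ratio of 2.23 to unaffected mice. *Egfl6* measured 7.96 ± 1.25 (SD, n = 5) and 22.1 ± 2.66 (SD, n = 7) on the same scale. Most members did not tighten in this way: the CV among affected mice was lower after the division in 26 of the 55, and its median over the members went from 23.5% to 26.0%. Over all genes at the CPM minimum, it was lower in 10.6%, and its median went from 16.98% to 37.0%. At the other end, the ratio of *Prrg3* became 1.04 and that of *Syngr1* 1.06. Whether the division removes a smaller share of thyrocytes, or a lower output of the factors within thyrocytes, cannot be told apart in these libraries.

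**Figure D4:**
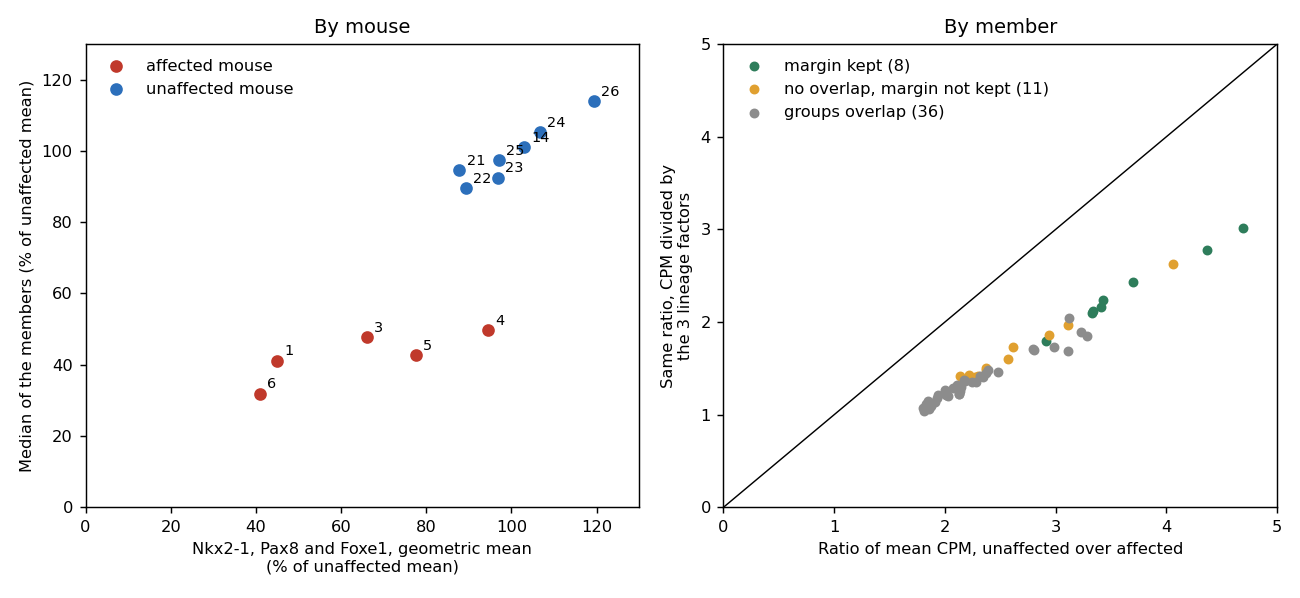
Left, the median of the 55 members in each mouse (y axis, % of the unaffected mean) against the geometric mean of *Nkx2-1*, *Pax8* and *Foxe1* (x axis, % of the unaffected mean), with replicate numbers beside the points. Right, each member's ratio of means before (x axis) and after (y axis) division by that geometric mean, with 8 members in green that kept the margin, 11 in orange without overlap and 36 in grey with overlap. Affected replicate 4 lies at 94.5% on the factors and at 49.7% on the members, which the rule requires to be low in every affected mouse.

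Other scalings moved the members less. The rule was met by 47 of the 55 members with TMM-scaled library sizes, by 44 with DESeq2 size factors, by 47 on the deposited FPKM values, which are also scaled by transcript length, and by 52 when *Tg* was left out of the library total, where the median of all genes moved to -0.12 on the log2 scale. In all 4 of these and the main scale, 38 members met it. The transcript length implied by count and FPKM did not overlap between the groups in 4 members, with differences of 27.8% in *Cux2*, -15.8% in *Prdm11*, 10.4% in *Gm12992* and 4.93% in *Dpysl3* (affected against unaffected). In the other 51 members it overlapped. No share over all genes is given beside this count, so it is not read as a trait of the members.

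The unaffected knockout mouse of the B6NTac background could be placed without having helped to choose the genes. The rule on the 5 affected and the 6 B6NCrl mice alone chose 57 genes, the 55 members with *Pak6* and *Gramd2*. Replicate 14 lay above the highest affected mouse in 57 of these 57 genes (100%), against 26.1% of the 12398 genes at the CPM minimum. On a log2 scale from the affected mean (0) to the mean of the 6 B6NCrl mice (1), its median position was 1.01, with a range from 0.628 to 1.41. It was the lowest of the 7 unaffected mice in 6 of the 55 members, and in 10.8% of all genes at the CPM minimum. *Pak6* was at 26.2 CPM in this mouse, between the highest affected value of 20.4 CPM and the lowest B6NCrl value of 29.98 CPM, and *Gramd2* at 148 CPM lay between 126 and 174 CPM in the same way. The affected mice are the same in the choice and in the placing, and the result is from 1 mouse. The 57 genes were chosen for a gap above these affected mice and all genes were not. A high share in replicate 14 therefore follows in part from the choice and is given as a description.

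Held out in the same way, each B6NCrl mouse lay above all affected mice in 96.1% to 100% of the genes chosen without it, against 10.4% to 26.4% of all genes. The lowest of these shares was that of replicate 23. Of the affected mice, replicates 3 and 5 lay under all unaffected mice in 100% of the genes chosen without them (64 and 59 genes), replicate 1 in 91.8% of 73 genes, replicate 6 in 88.4% of 69 genes and replicate 4 in 87.7% of 114 genes. Over all genes these shares were from 15.5% to 45.5%. Here too the mice of the other group are the same in the choice and in the placing. The genes were chosen for a gap between the groups and all genes were not. High shares therefore follow in part from the choice, and they are given as a description. Leaving out replicate 4 changed the number of genes chosen more than leaving out any other mouse.

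**Figure D5:**
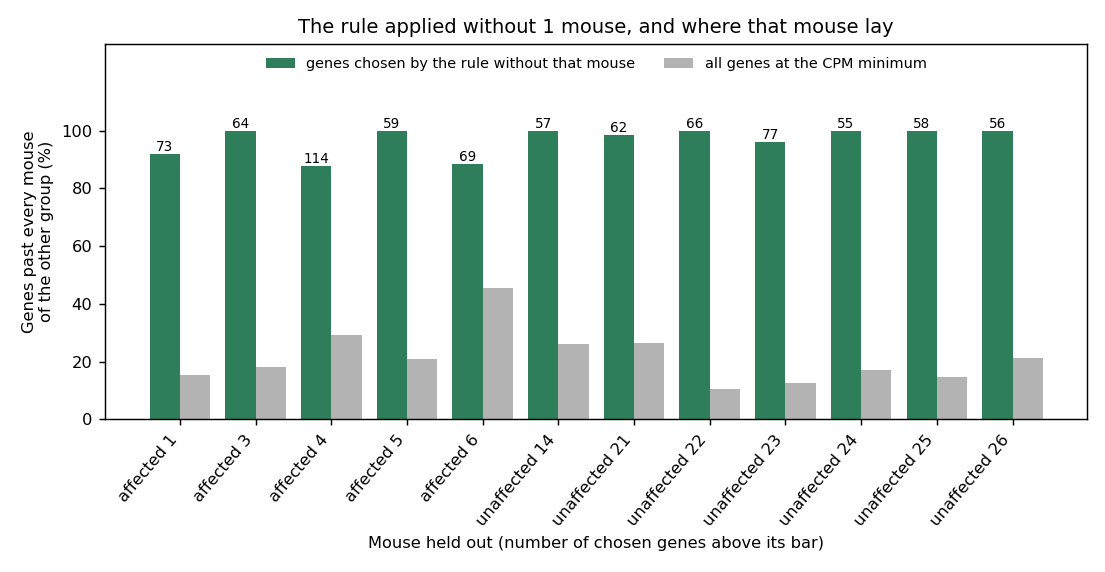
For each mouse (x axis), the share of genes (y axis, %) in which it lay past every mouse of the other group, above for unaffected and under for affected mice. Green bars are genes chosen by the rule without that mouse, with their number above the bar, and grey bars all genes at the CPM minimum. Replicate 14 is at 100% of 57 genes, against 26.1% of all genes. The mice of the other group helped to choose the genes of the green bars, so high green bars follow in part from the choice.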

How the data were processed

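Thyroid RNA of 5 affected and 7 unaffected mice was sequenced on a NextSeq 500 after ribosomal RNA was removed and libraries were built with a KAPA HyperPrep kit (500 ng of RNA each). The authors aligned the reads in OmicSoft Array Studio to the mouse genome with an Ensembl annotation and deposited estimated counts per gene, which are not normalized and need not be whole. They also deposited FPKM values, normalized by the authors for transcript length and depth. Coordinates are those of the deposited tables and match GRCm38. Totals ranged from 11434901 to 23319948 counts per mouse, which limits the precision of low genes.

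Members, gene lists and the role groups used to order them were chosen with earlier results of these data known, and the role groups after their values were seen. CPM is the count divided by the column total, scaled to a common total. No test was made of a member between the groups. Other genes were tested on counts rounded to whole numbers with edgeR's quasi-likelihood test (edgeR 4.0.16, R 4.3.3, filterByExpr with a minimum count of 10, TMM factors, robust estimation, no covariates), with Benjamini-Hochberg adjustment over 19661 genes and a threshold of 0.05. All 55 members passed that filter. Since the labels do not say more about the mice, the p-values measure the spread between these libraries.

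Members named are the 12 of largest ratio, the 8 of highest unaffected mean, those in a gene list, those with another member of the same symbol family, and those next to a threshold; other members are named for the role groups. Outside the members, at most 3 genes are named per list that holds a member, by size of change among those past the threshold; *Pax8*, *Nkx2-1* and *Foxe1* were chosen after their values were seen. Alternatives were TMM-scaled totals, totals without *Tg*, DESeq2 1.42.0, FPKM (limma 3.58.1 on log2 of FPKM with a pseudocount of 1 or 0.1), other margins and CPM minimums, no filter on low counts, no confounded genes, only B6NCrl controls, and leaving out each mouse. Division by the lineage factors and the placing of held-out mice were added after the data were seen. The edgeR step was tested on simulated data. Promoter windows are from RefSeq (GRCm38.p6). Exon overlaps were taken from GENCODE M21. The aligner's strand setting is not given in the sources used here.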

Additional observations from a re-analysis of the deposited data

Results flagged for a closer look

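Over the 55 members, 110 groups of 5 or 7 mice were examined for a mouse far from the rest of its group, and 5 were found, where chance flags about 1 in 20 groups. *Cracr2a* was at 135.4 CPM in unaffected replicate 23, where the other 6 unaffected mice ranged from 44.0 to 80.8 CPM. *Nrxn2* was at 21.91 CPM in the same mouse, against 12.9 to 15.9 CPM in the others. This mouse also had the highest summed level of airway markers (34840 CPM), whose part in both values was not tested. In unaffected replicate 26, *Nt5dc2* was at 24.93 CPM against 16.6 to 19.02 CPM, *Spon1* at 63.87 CPM against 48.6 to 54.8 CPM, and *Prr36* at 11.05 CPM against 7.95 to 8.69 CPM. All 5 are the highest unaffected value of their gene, so none of them sets its margin.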

How the results depend on the processing

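With the margin at 1, 1.5 and 2, the rule chose 465, 27 and 4 lower genes and 445, 34 and 15 higher genes. With an unaffected mean of at least 1 or 20 CPM it chose 87 or 36 lower and 93 or 39 higher genes, and without genes marked as confounded 26 and 28. Without *Tg* in the total, 32 higher genes were chosen, and after division by the lineage factors 8 lower genes. Leaving out 1 mouse at a time gave from 55 to 114 lower genes (most without affected replicate 4) and from 58 to 146 higher genes (most without affected replicate 6). All 55 members were chosen in each of these by construction, since fewer mice can only widen the margin. By edgeR, leaving out 1 mouse gave from 1774 to 3390 genes, from 746 to 1518 lower and from 1002 to 1872 higher, with 1774 in all and 772 lower without affected replicate 5, 775 lower without affected replicate 3 and 746 lower without unaffected replicate 24. In the listed genes outside the members it gave from 15 to 45 lower (29 with all mice): 45 without affected replicate 4, 19 without affected replicate 3, 16 without affected replicate 5, and 18, 15 and 16 without unaffected replicates 22, 24 and 26. Library totals without *Tg* gave 608 higher genes. Limma on log2(FPKM + 1) and log2(FPKM + 0.1) gave 979 and 983 higher genes. Without its filter it called 1339 genes, 620 lower and 719 higher, and 78 listed genes, 18 lower and 60 higher. The causes were not tested. Of 594 alternative values for 33 named members, 548 moved by less than 1 SD between mice. A further 46 moved more (33 of them under division by the lineage factors), and 0 changed direction. Members were chosen for a gap between all mice of the groups, so leaving out mice cannot reverse them. For those alternatives the 0 was fixed by the choice. Of 273 alternative values for 13 named other genes, 262 kept their call, and 11 (*Nid2*) lost it. No paired analysis was possible because the groups share no replicate number.

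With the counts of 1 library per mouse, 5 affected mice and 1 unaffected B6NTac mouse, the substrain and the phenotype cannot be separated beyond that mouse, and a member is defined by its most extreme mice in each group.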
